A study of Mus musculus with 32 samples.

Results

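A set of 10 imprinted genes that act in growth control were followed through fat cell differentiation: Dlk1, Meg3, H19, Igf2, Cdkn1c, Mest, Peg3, Plagl1, Grb10 and Ndn. They were chosen by gene symbol, all are among the 20560 genes measured, and the rule uses symbols only, although it was written with earlier results of these data in view. RNA was sequenced from 3T3-L1 cells, an established mouse fibroblast-like line committed to the fat lineage, after knockdown of Zbtb9 by short hairpin RNAs (shRNAs); its product carries zinc fingers and a BTB domain. At each of days 0, 3, 7 and 11 there were 4 libraries of a scramble hairpin control (shCtrl, genotype given as WT) and 4 knockdown libraries, 2 from each of 2 shRNAs against Zbtb9, so 32 libraries in all. Every group carries a hairpin vector, so no group shows the unmodified line. The hormone mixture that starts differentiation was added at day 0, when cells had been confluent for 2 days, and held 1 µM dexamethasone, 0.5 mM isobutylmethylxanthine and 167 nM insulin. Insulin alone was given from day 3, and medium with no addition from day 7. Day 0 cells are labelled preadipocytes, those of days 3 and 7 premature adipocytes, and those of day 11 mature adipocytes. The sample titles call the replicates "bio rep". Nothing in the labels says whether these came from separate cultures, so p-values measure the spread between these libraries, which may still be partly technical.

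In an imprinted gene, the copy from one parent is silenced by marks set in the germ line, mostly DNA methylation at an imprinting control region. Such genes often lie in clusters that share one control region and are expressed from opposite parental copies. In the mouse Dlk1, Igf2, Mest, Peg3, Plagl1 and Ndn are expressed mainly from the paternal copy, and H19, Meg3 and Cdkn1c from the maternal copy, while Grb10 switches parent with tissue. Dlk1, also called preadipocyte factor 1, is a transmembrane protein with epidermal growth factor-like repeats, a distant relative of Notch ligands, and its shed ectodomain is known to hold back fat cell differentiation. These counts do not separate the parental copies, so nothing below measures imprinting itself.

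H19, Mest and Igf2 are hosts of microRNAs that are made from the same primary transcripts, and their mature sequences are shown because the host RNAs are the members with the largest called knockdown changes on the log2 scale. The microRNAs themselves were not measured here. The sequences are from RefSeq (GRCm38.p6), 5′ to 3′, with the seed (bases 2 to 8) in capitals, and no seed is shared between any of the 6. The miR-675 pair lies in H19, the miR-335 pair in Mest and the miR-483 pair in Igf2, all on the host's strand.
mmu-miR-675-5p: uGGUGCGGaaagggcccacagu
mmu-miR-675-3p: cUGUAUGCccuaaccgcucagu
mmu-miR-335-5p: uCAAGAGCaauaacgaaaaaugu
mmu-miR-335-3p: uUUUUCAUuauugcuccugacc
mmu-miR-483-5p: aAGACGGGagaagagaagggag
mmu-miR-483-3p: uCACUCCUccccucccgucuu

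Dlk1 and Meg3 stand on the plus strand of chromosome 12 with 77.7 kb between them (GRCm38, GENCODE M21: Dlk1 at 109452823 to 109463336, a protein-coding gene, and Meg3 at 109541001 to 109571726, a long noncoding RNA). The 250 bases upstream of the Dlk1 start and of 1 of 2 Meg3 starts are printed because these neighbours were at the opposite ends of the range of levels, and those of a start of Mest because Mest was higher in the knockdown on 3 of the 4 days. The sequences are from RefSeq (GRCm38.p6), plus strand, with matches to 3 searched motifs in capitals: GGGGCCCC, GGGCGG and TATAAA, on both strands, overlapping matches counted separately. In the Dlk1 window, chr12:109452573-109452822, none of these letters occurred. The Meg3 window, chr12:109540746-109540995, held TATAAA on both strands, overlapping, and that of the other Meg3 start, at chr12:109545148-109545397, held none of the motifs. The Mest window, chr6:30737800-30738049, held GGGCGG. Among 32851 RefSeq windows of 250 bases before to 50 after a start, 1.08% held GGGGCCCC, 35.7% GGGCGG and 13.6% TATAAA. A match is a run of letters, not a site.
Dlk1 upstream: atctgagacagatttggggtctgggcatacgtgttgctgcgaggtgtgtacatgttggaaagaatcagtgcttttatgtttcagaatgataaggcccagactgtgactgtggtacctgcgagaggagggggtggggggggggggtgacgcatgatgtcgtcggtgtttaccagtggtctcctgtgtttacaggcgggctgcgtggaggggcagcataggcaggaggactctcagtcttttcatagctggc
Meg3 upstream: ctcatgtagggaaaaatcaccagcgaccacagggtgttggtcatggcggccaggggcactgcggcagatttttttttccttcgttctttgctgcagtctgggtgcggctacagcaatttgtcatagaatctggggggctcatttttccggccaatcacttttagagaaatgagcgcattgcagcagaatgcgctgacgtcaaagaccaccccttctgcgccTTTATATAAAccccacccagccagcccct
Mest upstream: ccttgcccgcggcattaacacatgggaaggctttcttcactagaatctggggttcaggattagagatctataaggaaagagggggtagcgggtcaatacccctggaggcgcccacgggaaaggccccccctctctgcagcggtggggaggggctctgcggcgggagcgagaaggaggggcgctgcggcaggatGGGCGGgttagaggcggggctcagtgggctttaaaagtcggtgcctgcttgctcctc

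H19 and Igf2 stand on the minus strand of chromosome 7 with 72.6 kb between them (H19 at 142575529 to 142578143, a long noncoding RNA, and Igf2 at 142650766 to 142666816, protein-coding). Of the other members, Cdkn1c lies at 143458339 to 143461050 (minus strand), Peg3 at 6703892 to 6730431 (minus) and Ndn at 62346569 to 62350262 (plus), all on chromosome 7. Mest lies on chromosome 6 at 30723547 to 30748465 (plus), Plagl1 on chromosome 10 at 13060504 to 13131694 (plus) and Grb10 on chromosome 11 at 11930508 to 12038683 (minus). Of the Igf2 exon bases, 62.8% are shared on the same strand with the protein-coding model Gm49394, so reads there have no single source. Of the Mest exon bases, 23.1% lie opposite exons of Copg2, a coat protein gene, and of the Cdkn1c bases 30.7% lie opposite the antisense gene Gm44732. Whether the counting used strand is not given in the sources used here, so reads from these overlaps cannot be assigned with certainty.

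The deposited values are log2 values in which each gene is drawn towards its own mean, and whole reads were rebuilt from them. Levels below are normalized reads, that is rebuilt reads scaled by the size factor of their library, and log2 changes are differences of the deposited values, which understate changes of genes with few reads. Libraries held about 22280000 to 31074000 reads in genes, and at day 11 control libraries were deeper (26486000 to 31074000) than knockdown libraries (22840000 to 25512000). Zbtb9 itself, with 16.8 normalized reads or fewer per control group on average, stood at 61.9%, 50.6%, 42.7% and 54.5% of control at days 0, 3, 7 and 11, with arms that overlapped at days 3 and 11. Summed over 15 adipocyte markers, control libraries rose from 20903 to 21467 normalized reads at day 0 to 63640 to 68925 at day 7, and knockdown libraries reached 170833 to 249989 at day 7, with all 14 markers tested higher in the knockdown on days 3 and 7 and 13 of 14 at day 11. Of 14 preadipocyte and fibroblast markers tested, 3, 5, 10 and 7 were lower at the 4 days and none higher, with summed levels at day 7 of 480520 to 522000 in the knockdown and 589525 to 637663 in the control. Defining markers of macrophages (Ptprc, Itgam), endothelium (Kdr, Tie1), muscle (Pax7, Ckm) and epithelium (Epcam) were under 1 normalized read on average at day 0 in both arms, while other genes of these lists were present. Of the 8 macrophage markers measured, 5 had 10 or more normalized reads at day 0, and the 8 summed to 746 to 855 in the control and 642 to 747 in the knockdown. At day 11 they summed to 982 to 1158 in the knockdown and 776 to 877 in the control, with Cd68 higher. At day 3 they summed to 487 to 639 in the knockdown and 674 to 752 in the control, with Cd14 lower, and at day 7 to 373 to 533 and 531 to 582, with Cd14 and Lyz2 lower and Cd68 higher. Endothelial markers summed to 9.88 to 102 normalized reads over all days and arms, with 1 of 2 tested, Vwf, lower in the knockdown at day 11. Skeletal muscle markers summed to 562 to 690 normalized reads in the knockdown and 327 to 412 in the control at day 7, with 1 of 2 tested markers, Des, higher, and epithelial markers to 119 to 732 and 20.8 to 47.2, with Krt8 and Krt18 higher and Epcam under 1. Des and Krt18 were also higher at day 11. The part of these marker shifts in the results on the imprinted genes was not tested, and fewer cells of a type and less RNA per cell cannot be told apart in bulk RNA.

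Per kilobase of exon, the 10 genes spanned from among the most abundant transcripts to none at all. In control cells at day 0 Dlk1 stood at 16820 ± 800 (SD, n = 4) normalized reads per kilobase, rank 34 of 20532 genes, and took 0.358% to 0.400% of all reads in a library. Peg3, a paternally expressed zinc finger protein, was next with 405 ± 28.3, then Ndn (necdin, a MAGE family protein) with 259 ± 22.7 and Mest, a hydrolase-fold protein of the endoplasmic reticulum, with 102 ± 5.56. H19 (5.80 ± 2.34), Igf2 (4.501 ± 1.352), Grb10 (3.30 ± 0.882) and Plagl1 (1.59 ± 0.360) followed at levels per kilobase whose neighbours in this order overlapped within about 1 SD, except that Plagl1 was lower than Grb10. Cdkn1c had no read in any of the 8 libraries of day 0, which allows up to 3 reads in each. Meg3 had 12 reads in all 32 libraries together, with 26 libraries at 0, beside 2461640 reads of Dlk1.

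Other maternally expressed RNAs of the Meg3 cluster were also rare. Rian had 299 reads and Mirg 154 in the 32 libraries, and the paternally expressed Rtl1 had 582. Begain, a further gene at its edge, had 773 reads.

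**Figure D1:**
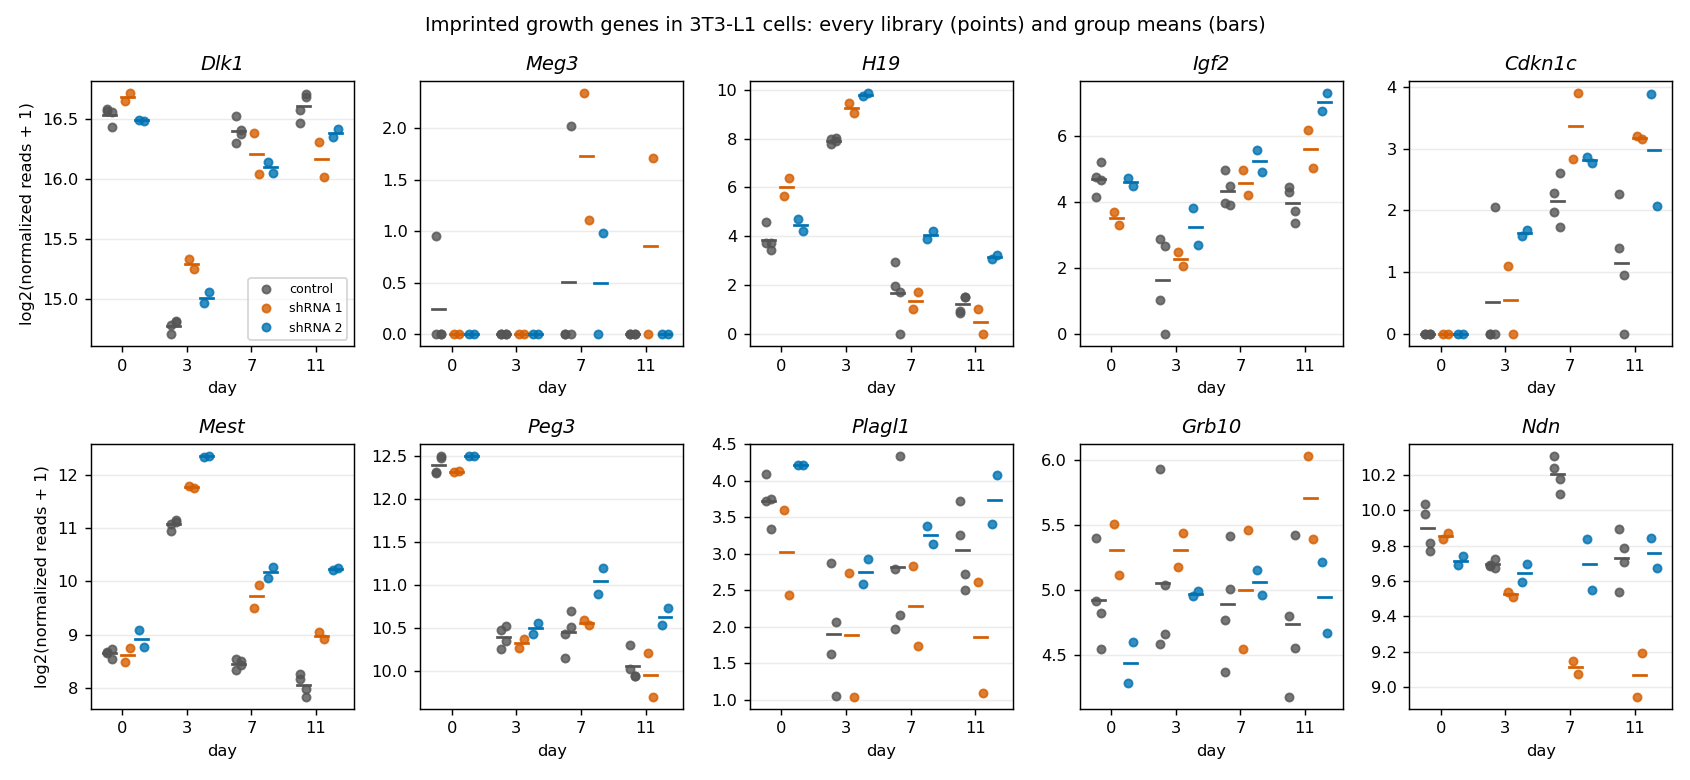
Level of each of the 10 genes in every library: day on the x axis, log2 of normalized reads plus 1 on the y axis (a separate scale in each panel), points for single libraries and short bars for group means of control (grey, 4 a day), shRNA 1 (orange, 2) and shRNA 2 (blue, 2). Dlk1 drops at day 3 in all libraries while H19 and Mest peak there, and the knockdown points of Mest lie above control from day 3 on.

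The course in control cells came first, as the background for the knockdown. The members split at day 3, the first time after the hormone mixture: H19 and Mest rose, and Dlk1, Peg3, Igf2 and Ndn fell. By day 7 Dlk1 was back near its first level, H19 was almost gone and Peg3 stayed low. Of the 7 members that passed the filter (2 to the power of the deposited value at least 10 in at least 4 libraries; all but Meg3, Cdkn1c and Plagl1), 2 rose and 4 fell by day 3, where 38.3% and 38.2% of all tested genes did so at an adjusted p under 0.05 (limma, Benjamini-Hochberg). At day 7 against day 0, 1 rose and 4 fell (33.3% and 35.8% of all genes), and at day 11, 0 rose and 5 fell (33.0% and 31.6%). From day 3 to day 7, 3 rose and 2 fell (37.6% and 36.6%), and from day 7 to day 11, 1 rose and 3 fell (28.9% and 26.1%). Calls were thus about as frequent among the members as among all genes, and Grb10 passed in none of the 5 comparisons. Since the filter acts on values drawn towards the gene mean and not on reads, H19 was tested at day 11 on 6 reads in the control and 16 in the knockdown and Igf2 at day 3 on 12 and 25, while Plagl1, with 35 and 30 reads at day 11, was not.

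Dlk1 in the 4 control libraries had 97175, 96719, 98266 and 88435 normalized reads at day 0, and 26694, 28852, 28136 and 28545 at day 3. It had 80460, 87079, 94117 and 84904 at day 7, and 97368, 105077, 90538 and 107235 at day 11. All day 3 libraries lie below all others, while the other days overlap or touch. The day 3 mean was 0.295 of that at day 0, a log2 change of -1.71 ± 0.05 (SE; limma, adjusted p = 3.77e-23). Dlk1 rose again by 1.58 ± 0.05 from day 3 to day 7 and by 0.20 ± 0.05 from day 7 to day 11 (limma, adjusted p = 6.23e-22 and 0.000676). Day 7 was lower than day 0 by a small amount (-0.13 ± 0.05, limma adjusted p = 0.0150), a call lost without day 7 control replicate 1 (adjusted p = 0.0739), without the trend and robust options (0.0545) and in 1 fit of all 32 libraries (0.156).

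H19, a noncoding RNA that is abundant in embryonic tissue and mostly shut off after birth, moved the other way. Its control libraries had 22.7, 12.1, 12.2 and 9.95 normalized reads at day 0, and 220, 236, 254 and 257 at day 3. At day 7 they had 2.95, 0, 6.80 and 2.31, and at day 11 0.813, 1.87, 0.950 and 1.86. The day 3 mean was 17.0 times that of day 0, and only days 7 and 11 overlap. The log2 change was 3.17 ± 0.13 to day 3 (limma, adjusted p = 1.17e-21) and -3.8 ± 0.13 from day 3 to day 7 (adjusted p = 1.65e-23). Over 10 other settings these changes were 2.65 to 4.1 and -6.61 to -3.04.

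Mest had the same peak. Its control libraries had 401, 371, 405 and 424 normalized reads at day 0 and 1971, 2196, 2142 and 2273 at day 3, then 370, 346, 324 and 361 at day 7 and 307, 250, 285 and 228 at day 11. Day 3 was 5.36 times day 0 (log2 change 2.30 ± 0.07, limma adjusted p = 4.21e-25), and day 11 was 0.668 of day 0 (-0.54 ± 0.07, adjusted p = 3.58e-08). The small fall at day 7 against day 0 (-0.18 ± 0.07, limma adjusted p = 0.0272) was lost without day 0 control replicate 3 or 4 or day 7 control replicate 3, with adjusted p up to 0.0937, and in 1 fit of all 32 libraries (0.491). The fall of Mest from day 7 to day 11 (-0.37 ± 0.07, limma adjusted p = 4.2e-05) was also lost in that fit (0.171).

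Igf2, a secreted growth factor that signals through the IGF1 receptor, was rare throughout. Control libraries had 16.8, 24.3, 26.3 and 35.6 normalized reads at day 0 and 1.05, 5.29, 6.28 and 0 at day 3, with no overlap. They had 14.8, 21.3, 30.1 and 13.9 at day 7 and 18.7, 12.2, 20.9 and 9.29 at day 11. The day 3 mean was 0.122 of day 0 (log2 change of the deposited values -0.91 ± 0.14, limma adjusted p = 4.96e-07; -3.40 to -0.56 over 9 other settings). Its lower value at day 11 against day 0 (-0.35 ± 0.14, adjusted p = 0.0288) was called in 6 of 9 other settings and lost without day 0 control replicate 3 or 4 or day 11 control replicate 2 or 4 (adjusted p up to 0.131).

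Peg3 fell early and stayed low. Control libraries had 5044 to 5762 normalized reads at day 0, 1219 to 1470 at day 3, 1142 to 1660 at day 7 and 984 to 1263 at day 11. Day 3 stood at 0.251 and day 11 at 0.198 of day 0 (log2 change -1.92 ± 0.10 and -2.25 ± 0.10, limma adjusted p = 2.90e-10 and 8.23e-11). Ndn moved within a narrow band, from 872 to 1046 at day 0 to 816 to 846 at day 3, 1090 to 1266 at day 7 and 741 to 951 at day 11. Its fall from day 0 to day 3 was -0.19 ± 0.06 (limma, adjusted p = 0.00581), a call lost in 1 fit of all 32 libraries (0.199). Its rise from day 3 to day 7 was 0.48 ± 0.06 and its fall from day 7 to day 11 was -0.45 ± 0.06 (limma, adjusted p = 1.90e-08 and 1.91e-07). The lower Ndn value at day 11 against day 0 (-0.16 ± 0.06, adjusted p = 0.0268) was lost without any one of day 0 control replicates 1 and 3 and day 11 control replicates 3 and 4 (adjusted p up to 0.177), without the trend and robust options (0.0620) and in 1 fit of all 32 libraries (0.327). Grb10, an adaptor that restrains insulin and IGF receptor signalling, had group means of 27.04 to 34.8 normalized reads on the 4 days.

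Plagl1, a zinc finger transcription factor, was under the filter. It had 9.11 to 16 normalized reads in control libraries at day 0 and 1.06 to 6.31 at day 3, which do not overlap. Cdkn1c, the cyclin-dependent kinase inhibitor p57, went from no read in control libraries at day 0 to 2.31 to 5.07 normalized reads at day 7. Both rest on few reads, with 134 and 24 reads in the 16 control libraries together.

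In the knockdown, Mest was higher from day 3 to day 11, H19 and Dlk1 were higher at day 3, Igf2 was higher at day 11, and Dlk1 at days 7 and 11 and Ndn at day 7 were lower. At day 0 none of the 7 tested members was called, where 0.817% of all tested genes were higher and 2.44% lower (limma), and voom called none. At day 0, 1 of the 7, H19, had an unadjusted p under 0.05, as did 2609 of all 13216 genes tested. At day 3, 3 were higher and 0 lower, where 14.6% and 12.1% of genes were. At day 7, 1 was higher and 2 lower, where 24.9% and 22.6% were, and at day 11, 2 were higher and 1 lower, where 16.8% and 16.2% were. Peg3 and Grb10 were called on no day.

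**Figure D2:**
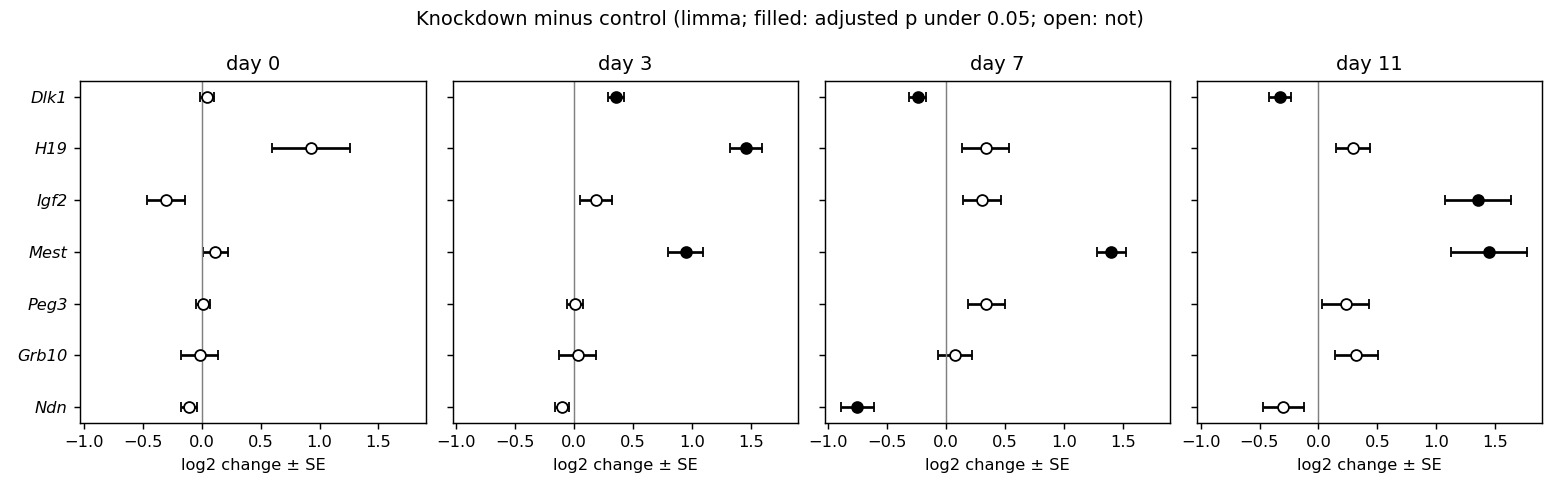
Knockdown minus control for the 7 tested genes, 1 panel a day: log2 change of the deposited values on the x axis with its standard error, filled circles for an adjusted p under 0.05. Mest lies at 0.95, 1.40 and 1.45 on days 3, 7 and 11, and Dlk1 crosses from 0.36 at day 3 to -0.33 at day 11.

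Mest at day 3 had 3523 and 3453 normalized reads with shRNA 1 and 5156 and 5224 with shRNA 2, all above the control libraries. The ratio of means was 2.02 and the log2 change 0.95 ± 0.15 (limma, adjusted p = 0.00295). At day 7 it had 724 and 973 with shRNA 1 and 1073 and 1234 with shRNA 2, again all above control, a ratio of 2.86 and a change of 1.40 ± 0.12 (adjusted p = 1.3e-06). At day 11 it had 528 and 480 with shRNA 1 and 1188 and 1209 with shRNA 2, a ratio of 3.18 and a change of 1.45 ± 0.32 (adjusted p = 0.0119). The control level of Mest had already fallen back at days 7 and 11, and the knockdown libraries there stood between that level and the day 3 peak. At day 0 the arms overlapped, with 356 to 542 in the knockdown and 371 to 424 in the control (0.12 ± 0.10, adjusted p = 0.567). Copg2, which overlaps Mest on the opposite strand, was also higher in the knockdown at days 3, 7 and 11, by 468, 930 and 486 normalized reads, where Mest was higher by 2194, 651 and 584; how far reads of one entered the other was not tested.

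H19 at day 3 had 706 and 533 normalized reads with shRNA 1 and 851 and 931 with shRNA 2, all above the 220 to 257 of the control. The ratio of means was 3.12 and the log2 change 1.46 ± 0.13 (limma, adjusted p = 1.07e-05). At day 0 H19 had 49.0 and 82.3 with shRNA 1, 25.5 and 17.6 with shRNA 2 and 9.95 to 22.7 in the control, so that only shRNA 2 overlapped control. The change with both shRNAs together, 0.93 ± 0.33, was not called (limma, adjusted p = 0.174). At days 7 and 11 the control was close to no reads, and the knockdown libraries had 1.02, 2.32, 13.6 and 17.5 normalized reads, then 1.02, 0, 7.44 and 8.50. In both sets the 2 highest values are those of shRNA 2, and the arms overlap (0.33 ± 0.20 and 0.29 ± 0.15, adjusted p = 0.185 and 0.148). Without shRNA 1 replicate 1 the day 7 difference was called (adjusted p = 0.0371).

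Dlk1 changed direction. At day 3, near its lowest level, it had 41142 and 38786 normalized reads with shRNA 1 and 31913 and 34006 with shRNA 2, all above the 26694 to 28852 of the control (ratio 1.3, log2 change 0.36 ± 0.07, limma adjusted p = 0.00175). At day 7 it had 85309 and 67311 with shRNA 1 and 72350 and 67804 with shRNA 2, where shRNA 1 replicate 1 lay within the control range (ratio 0.845, -0.24 ± 0.07, adjusted p = 0.0119). At day 11 it had 81093 and 66348 with shRNA 1 and 83527 and 87356 with shRNA 2, all below the 90538 to 107235 of the control (ratio 0.795, -0.33 ± 0.09, adjusted p = 0.0198). The day 11 call was lost without control replicate 2 or control replicate 4, with adjusted p up to 0.0624. The knockdown means were above control where Dlk1 was at its lowest and below control after its return. At day 0 the arms overlapped (0.05 ± 0.06, adjusted p = 0.687).

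Igf2 at day 11 had 71.5 and 31.8 normalized reads with shRNA 1 and 107 and 156 with shRNA 2, all above the 9.29 to 20.9 of the control. The ratio of means was 6.01, resting on 346 reads in the knockdown and 68 in the control, and the log2 change of the deposited values was 1.36 ± 0.28 (limma, adjusted p = 0.00497). With limma's voom on rebuilt reads the change was 2.41 ± 0.60 (adjusted p = 0.0132). On the other days the arms overlapped, at 8.85 to 25.5 against 16.8 to 35.6 on day 0, 3.17 to 12.99 against 0 to 6.28 on day 3, and 17.4 to 46.2 against 13.9 to 30.1 on day 7. The day 7 difference (0.30 ± 0.16, adjusted p = 0.140) was called without shRNA 1 replicate 2 (adjusted p = 0.0378). Gm49394, which shares exons with Igf2, had 97 reads in all libraries, and at day 11 its means were 2.45 ± 1.28 in the control and 9.16 ± 5.91 in the knockdown (SD, n = 4). Igf2os, on the opposite strand, had means at day 11 of 1.90 ± 2.68 in the control and 15.6 ± 5.92 in the knockdown, and at day 7 of 2.00 ± 1.90 and 15.9 ± 12.9. How far reads of these genes entered the Igf2 count was not tested.

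Ndn at day 7 had 567 and 538 normalized reads with shRNA 1 and 914 and 748 with shRNA 2, all below the 1090 to 1266 of the control (ratio 0.586, log2 change -0.76 ± 0.14, limma adjusted p = 0.0013). At day 11 it had 492 and 584 with shRNA 1 and 919 and 815 with shRNA 2, against 741 to 951 in the control. The shRNA 2 libraries lay within the control range there and those of shRNA 1 below it, and the change of both together was not called (-0.30 ± 0.18, adjusted p = 0.233), but was with the shRNAs as separate groups (limma, adjusted p = 0.00418).

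Peg3 at day 7 had 1542 and 1480 normalized reads with shRNA 1 and 1905 and 2352 with shRNA 2, against 1142 to 1660 in the control (0.34 ± 0.16, limma adjusted p = 0.112). At day 11 the change was 0.23 ± 0.20 (adjusted p = 0.418), and it was called without shRNA 1 replicate 2 (adjusted p = 0.0223). Grb10 at day 11 had means of 41.5 ± 16.8 in the knockdown and 27.04 ± 10.6 in the control (SD, n = 4; 0.32 ± 0.18, limma adjusted p = 0.196). Its arms overlapped on all 4 days.

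The 3 genes under the filter were compared by two-sided exact permutation tests of normalized reads, 12 tests in all, a comparison chosen after seeing the data. Cdkn1c at day 7 had 6.09 and 13.9 normalized reads with shRNA 1 and 6.29 and 5.85 with shRNA 2, above the 2.95, 5.07, 3.88 and 2.31 of the control. The difference of 4.48 normalized reads had an exact p of 0.029, the smallest that 4 against 4 libraries allow, and 0.343 after adjustment over the 12. At day 11 it had 8.17, 7.95, 13.8 and 3.19 against 1.63, 0, 3.801 and 0.929, a difference of 6.69 (exact p = 0.057, adjusted 0.343). Without a filter on low values, limma called this day 11 difference (0.30 ± 0.09 on the deposited scale, adjusted p = 0.0317). Over all days Cdkn1c had 66 reads in the knockdown and 24 in the control. Plagl1 had 128 and 134 reads, and its smallest exact p over the 4 days was 0.429. Meg3 had 8 reads in the knockdown and 4 in the control, too few for a difference to be detectable.

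Whether the knockdown effect itself differed between days was tested over all 32 libraries. It did for 5 of the 7 members, where 41.2% of all tested genes passed the same F test (limma): Dlk1 (adjusted p = 3.79e-05), Igf2 (0.000396), Mest (0.00260), Ndn (0.0165) and H19 (0.0176). It was not called for Peg3 (0.431) or Grb10 (0.606). Dlk1 was the one among these 5 that was called higher on one day and lower on another.

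The 2 shRNAs differed from each other in the size of several changes, and no member was called higher than control with one and lower with the other on the same day. Tested directly in a fit of 3 groups a day (limma), shRNA 2 and shRNA 1 differed for 6 of 7 members at day 0, where 35.0% of all genes did, for 3 at day 3 (19.6%), 3 at day 7 (16.4%) and 5 at day 11 (22.0%). H19 at day 0 was higher than control by 1.51 ± 0.19 with shRNA 1 (adjusted p = 8.58e-07) and by 0.35 ± 0.19 with shRNA 2 (adjusted p = 0.220), a difference between them of -1.16 ± 0.21 (adjusted p = 0.000173). This order was reversed later, since H19 was higher with shRNA 2 than with shRNA 1 by 0.49 ± 0.12, 0.80 ± 0.20 and 0.49 ± 0.17 at days 3, 7 and 11 (adjusted p = 0.00315, 0.00562 and 0.0418). At days 7 and 11 H19 differed from control with shRNA 2 (0.73 ± 0.17 and 0.54 ± 0.14, adjusted p = 0.000855 and 0.00711), while shRNA 1 gave -0.06 ± 0.17 and 0.04 ± 0.14.

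Mest was higher than control with both shRNAs at days 3, 7 and 11, and more so with shRNA 2, by 0.55 ± 0.06, 0.43 ± 0.11 and 1.18 ± 0.12 (limma, adjusted p = 1.99e-09, 0.00716 and 2.84e-06). At day 0 it was higher with shRNA 2 (0.26 ± 0.09, adjusted p = 0.0402), and shRNA 1 gave -0.03 ± 0.09. Igf2 at day 11 was higher with both, by 0.88 ± 0.20 with shRNA 1 and 1.83 ± 0.20 with shRNA 2 (limma, adjusted p = 0.00189 and 2.82e-06). At day 0 Igf2 was lower than control with shRNA 1 (-0.54 ± 0.16, adjusted p = 0.00773) and not with shRNA 2 (-0.06 ± 0.16), and the shRNAs differed by 0.49 ± 0.18 (adjusted p = 0.0376). At day 7 Igf2 was higher with shRNA 2 (0.48 ± 0.18, adjusted p = 0.0317), shRNA 1 gave 0.12 ± 0.18, and the shRNAs were not called different (adjusted p = 0.274).

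Ndn was lower at day 7 with both, by -1.03 ± 0.08 with shRNA 1 and -0.48 ± 0.08 with shRNA 2 (limma, adjusted p = 1.18e-11 and 9.46e-06). At day 11 it was lower with shRNA 1 (-0.62 ± 0.09, adjusted p = 4.35e-05), shRNA 2 gave 0.03 ± 0.09, and the difference was 0.65 ± 0.11 (adjusted p = 0.000524). Peg3 was higher than control with shRNA 2 at days 7 and 11 (0.57 ± 0.14 and 0.55 ± 0.14, limma adjusted p = 0.00855 and 0.0123), and the shRNAs differed at day 11 (0.64 ± 0.16, adjusted p = 0.0206) and were not called at day 7 (0.47 ± 0.16, adjusted p = 0.0861). Dlk1 at day 0 was higher with shRNA 1 (0.14 ± 0.03, limma adjusted p = 0.00252), and shRNA 2 gave -0.05 ± 0.03. At day 3 it was higher with both, by 0.50 ± 0.04 with shRNA 1 and 0.23 ± 0.04 with shRNA 2 (limma, adjusted p = 6.47e-13 and 1.61e-05). Its later fall passed with shRNA 2 at day 7 (-0.30 ± 0.08, adjusted p = 0.00466) and with shRNA 1 at day 11 (-0.43 ± 0.09, adjusted p = 0.000557), beside -0.19 ± 0.08 with shRNA 1 at day 7 (adjusted p = 0.0538) and -0.22 ± 0.09 with shRNA 2 at day 11 (adjusted p = 0.0552). The shRNAs were not called different for Dlk1 on those days (adjusted p = 0.461 and 0.137). Grb10 at day 11 was higher than control with shRNA 1 (0.54 ± 0.18, limma adjusted p = 0.0220), beside 0.10 ± 0.18 with shRNA 2, and the shRNAs were not called different (adjusted p = 0.144).

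**Figure D3:**
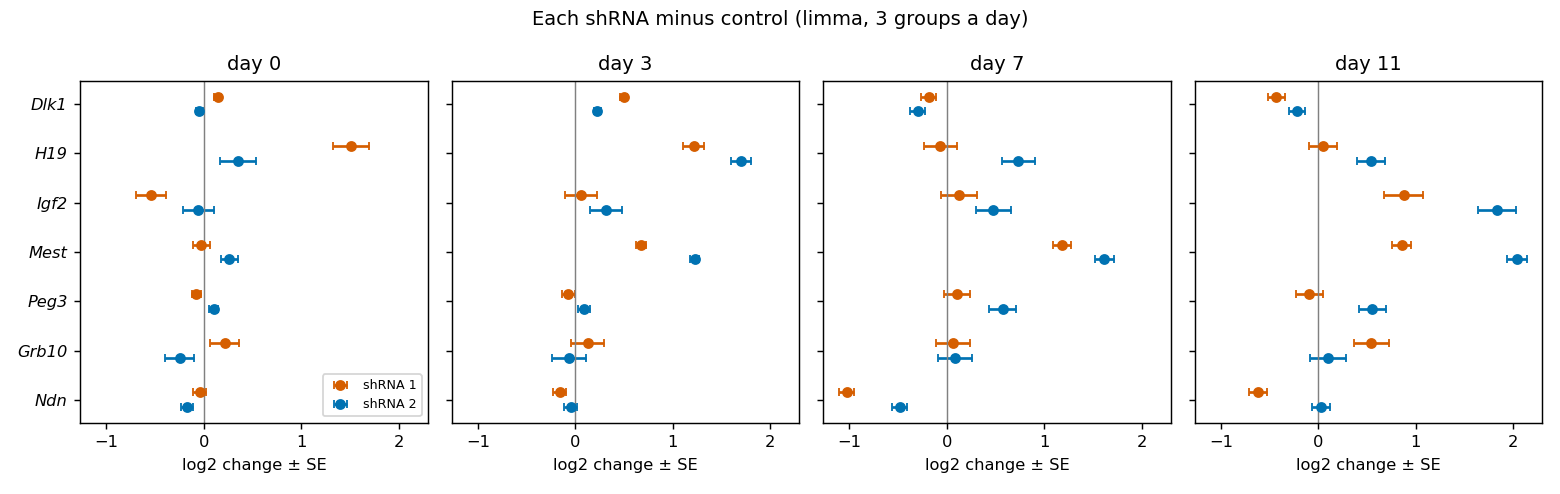
Change of the 7 tested genes against control for shRNA 1 (orange) and shRNA 2 (blue), 1 panel a day, log2 change of the deposited values with its standard error on the x axis, 2 libraries for each shRNA. H19 lies farther above control with shRNA 1 at day 0 and with shRNA 2 on the later days, and Ndn at day 11 lies at -0.62 with shRNA 1 and 0.03 with shRNA 2.

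The neighbours were compared within each library, as the difference of their log2 values, by two-sided exact permutation tests adjusted over 8 tests. An exact p of 0.029 is the smallest that 4 against 4 libraries allow. An adjusted 0.046 is reached only because several of the 8 tests, with Dlk1 minus Meg3 at day 7 among them, stand at that value. If any of them left it, none would pass. For H19 minus Igf2, control libraries stood at -0.71 to 0.48 at day 0 and 3.73 to 4.16 at day 3, and at -0.93 to -0.42 at day 7 and -0.93 to -0.37 at day 11. At day 3 the knockdown libraries (4.91 to 5.5) all lay above control, a mean difference of 1.27 (exact p = 0.029, adjusted 0.046). At day 11 they (-2.13 to -1.15) all lay below control, by -1.07 (exact p = 0.029, adjusted 0.046). The day 3 value rests on 12 Igf2 reads in the control and 25 in the knockdown. At day 11 H19 had 6 reads in the control and 16 in the knockdown, so that shift is mostly one of Igf2. At day 0 the difference was 1.23 (exact p = 0.086, adjusted 0.114), with shRNA 1 at 1.47 to 2.24 and shRNA 2 at 0.11 to 0.31. At day 7 it was 0.03 (exact p = 0.943).

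The day 3 shift of H19 minus Igf2 was 0.49 (adjusted 0.571) on log2 of normalized reads plus 1, a scale on which the few Igf2 reads of that day weigh more, and the day 11 shift there was -1.74 (adjusted 0.076). With a pseudocount of 10 the shifts between these neighbours were 1.3 and -0.84 (both adjusted 0.057), so neither passed on either of these scales. Except for day 3 on log2 of normalized reads plus 1, the arms still did not overlap. In those cases the adjusted p rose because other tests of the 8 left the smallest exact p. With voom on rebuilt reads the day 3 changes of H19 and Igf2 were 1.61 ± 0.20 and 1.40 ± 0.74. For Dlk1 minus Meg3 the difference between arms was 0.06 at day 0 (exact p = 0.371), 0.36 at day 3, -0.27 at day 7 and -0.35 at day 11 (exact p = 0.029 and adjusted 0.046 at each of the last 3). With 12 reads of Meg3 in all libraries these are mostly differences of Dlk1, but the separation of the arms at day 7 rests on Meg3 reads. There Dlk1 alone overlapped, and shRNA 1 replicate 1 fell below control in the difference with 4 Meg3 reads. None of the Dlk1 minus Meg3 shifts passed with a pseudocount of 10 or on log2 of normalized reads plus 1. On the latter scale those of days 7 and 11 were larger.

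**Figure D4:**
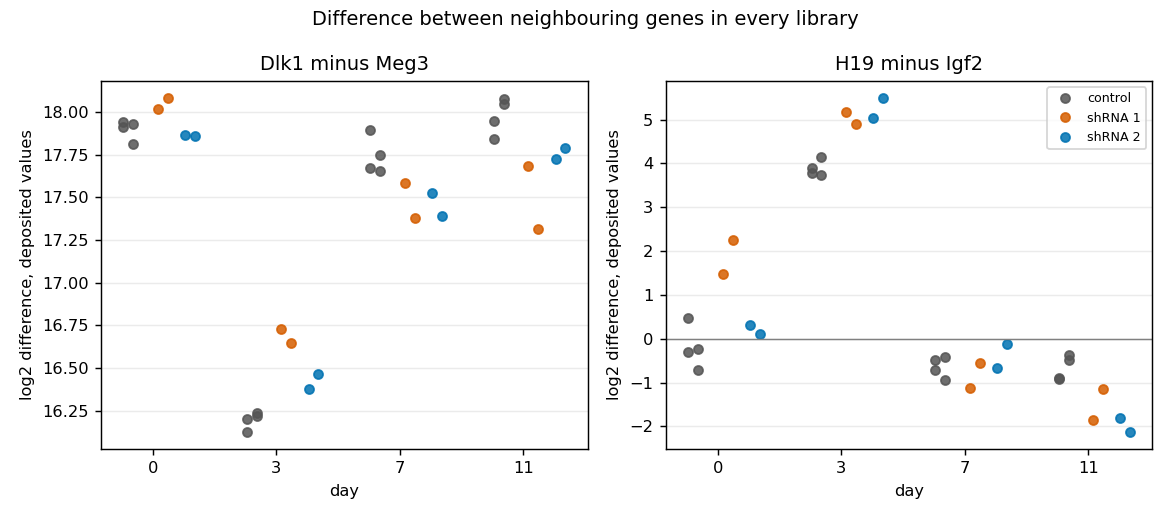
Difference of the deposited log2 values of Dlk1 and Meg3 (left) and of H19 and Igf2 (right) in every library, by day, for control (grey), shRNA 1 (orange) and shRNA 2 (blue). H19 minus Igf2 peaks at day 3, where all knockdown points lie above control, and at day 11 all knockdown points lie below control.

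Across the 8 group means (4 days, 2 arms) the log2 level of Mest went with that of H19 (Pearson r = 0.88) and against that of Dlk1 (r = -0.91), and H19 went against Dlk1 (r = -0.87). Igf2 and H19 had r = -0.68, and Dlk1 and Igf2 r = 0.57. These are descriptions over 8 points that share libraries. H19 stood at 7.46 (control) and 8.92 (knockdown) at day 3 and at 3.46 to 5.22 on the other days. Its correlations with the other members thus rest largely on day 3 and do not show a link on the other days. The named genes with courses most like Dlk1 were Fgd4 (r = 0.995), Selenom (0.989) and Uevld (0.986). For H19 they were Tra2b (0.997), Nvl (0.997) and Ftsj1 (0.994), and for Igf2 Wdcp (0.970), Tec (0.961) and Pnrc1 (0.960). Tra2b spanned 10.92 to 11.86 on the log2 scale over the 8 means where H19 spanned 3.46 to 8.92, so likeness is of shape and not of size.

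Of 27 imprinted genes beside the members in their clusters, 21 are in the table and 12 were tested. None was called at day 0, 2 were higher and 1 lower at day 3, 2 and 1 at day 7, and 1 and 1 at day 11 (limma). For this list and the lists that follow, the shares of all tested genes higher and lower were 0.817% and 2.44% at day 0, 14.6% and 12.1% at day 3, 24.9% and 22.6% at day 7, and 16.8% and 16.2% at day 11. The neighbours' median change at day 7 was 0.08, against 0.01 over all genes. Copg2 was higher at days 3, 7 and 11 and Cd81 lower at days 3 and 7. Copg2 at day 7 had 4083 ± 171 normalized reads in the knockdown and 3153 ± 104 in the control (SD, n = 4; 0.36 ± 0.05, limma adjusted p = 2.40e-05). Snrpn, a splicing protein gene in the Ndn region, was higher by 0.30 ± 0.08 (adjusted p = 0.00528), and Cd81, a tetraspanin gene near H19 and Igf2, was lower by -0.27 ± 0.05 (adjusted p = 0.000262).

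Of 30 other imprinted genes, 16 were tested: 0 higher and 0 lower at day 0, 4 and 5 at day 3, 4 and 8 at day 7, and 3 and 4 at day 11, with a median change at day 7 of -0.15. The 8 of 16 lower at day 7 stand beside 22.6% of all genes. The largest change was that of Peg10, a gene derived from a retrotransposon, with 40719 ± 5696 normalized reads at day 7 in the knockdown and 6623 ± 364 in the control (SD, n = 4; 2.53 ± 0.09, limma adjusted p = 3.03e-10). At day 11 it was higher by 2.39 ± 0.11 (limma, adjusted p = 1.91e-07). Peg13, a noncoding RNA, was lower at day 7 by -0.85 ± 0.12, and Dcn, the matrix proteoglycan decorin, by -0.69 ± 0.12 (limma, adjusted p = 0.000115 and 0.000668).

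Among 28 genes that set or keep imprints, 25 were tested, with 1 higher and 0 lower at day 0, 4 and 2 at day 3, 9 and 10 at day 7, and 4 and 6 at day 11. Their 9 higher and 10 lower at day 7 stand beside 24.9% and 22.6% of all genes, and their median change was -0.04. Zfp57, the zinc finger protein that guards methylation at imprinting control regions, was lower in the knockdown at day 7 (171 ± 26.5 against 316 ± 35.7 normalized reads, SD, n = 4; -0.80 ± 0.11, limma adjusted p = 2.98e-05) and at day 11 (-0.87 ± 0.10, adjusted p = 4.76e-05). The de novo methyltransferase gene Dnmt3a was higher by 0.60 ± 0.06 at day 7, and Tet1, for an enzyme that oxidizes methylated cytosine, lower by -0.53 ± 0.16 (limma, adjusted p = 1.83e-06 and 0.0118).

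Of 20 genes of IGF2 and insulin receptor signalling, 19 were tested, with 0 higher and 0 lower at day 0, 3 and 3 at day 3, 3 and 8 at day 7, and 3 and 7 at day 11 (median at day 7, -0.10). The 8 lower at day 7 and the 7 lower at day 11 stand beside 22.6% and 16.2% of all genes. Sh2b2, an adaptor of the insulin receptor, had 3739 ± 405 normalized reads at day 7 in the knockdown and 934 ± 26.2 in the control (SD, n = 4; 1.91 ± 0.07, limma adjusted p = 4.15e-11). Insr, the insulin receptor, was higher by 0.53 ± 0.06, and Igf2bp3, an RNA-binding protein named for Igf2 messenger RNA, lower by -0.37 ± 0.05 (limma, adjusted p = 4.54e-06 and 2.40e-05). Igf2r, the receptor that clears IGF2 and is itself imprinted, was among the genes lower at days 7 and 11, and Igf1r among those lower at days 3 and 7.

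Of 20 genes of the Dlk1 and Notch pathway, 16 to 18 were tested, with 0 higher and 2 lower at day 0, 3 and 4 at day 3, 1 and 6 at day 7, and 1 and 4 at day 11 (median at day 7, -0.12). The 1 higher and 6 lower at day 7 stand beside 24.9% and 22.6% of all genes. Notch3, a receptor, was lower on all 4 days, by -0.28 ± 0.05, -0.55 ± 0.11, -0.58 ± 0.09 and -0.67 ± 0.11 (limma, adjusted p = 0.0190, 0.00245, 7.67e-05 and 0.000954). Hes1, a Notch target gene, was higher at days 3 and 7 (0.27 ± 0.06 and 0.65 ± 0.09, limma adjusted p = 0.00349 and 1.60e-05). Sox9, a transcription factor gene, was lower at day 7 by -0.83 ± 0.10 (limma, adjusted p = 1.92e-05).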

How the data were processed

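RNA from 32 libraries was sequenced, with 4 scramble control and 4 knockdown libraries on each of 4 days. The deposited table holds log2 values per gene made by the authors, whose form is that of a regularized log transformation. Per the submitters' processing notes, TopHat2 2.1.0, Bowtie2 2.2.6, SAMtools 1.3.1 and HTSeq 0.6.1 were used; the genome build, annotation and use of strand are not given in the sources used here. Inverting the transformation gave values within 0.1 of a whole read for 99.3% of entries (20% by chance), and 317 of the 320 values of the 10 genes; these reads gave levels and depth, about 22280000 to 31074000 reads in genes. The design had assumed normalized counts, so differences were tested on the log2 values with limma 3.58.1 (R 4.3.3; trend and robust options), Benjamini-Hochberg adjusted over all genes with 2 to the power of the value of at least 10 in at least 4 libraries, called at an adjusted p under 0.05. Only the libraries compared entered each fit: 8 for knockdown against control, the 16 control libraries for the time course, 32 for the test of days.

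Named genes were the 10 members, the 3 called genes with the largest day 7 knockdown change in each of 5 lists, and the 3 genes most correlated with Dlk1, H19 and Igf2 over group means. Igf2r, Igf1r, marker genes, other genes of the Meg3 cluster and genes that overlap a member were named outside this rule, after their values were seen. The members and lists were chosen with earlier results of these data known. Positions are from GENCODE M21 (GRCm38), with 20532 of 20560 gene IDs matched; it may not be the authors' build. Alternatives were other filters, scalings, pseudocounts, voom on rebuilt reads, fits without trend and robust options, 1 fit of all libraries, the shRNAs as separate groups, a replicate block and each library left out. The fit was tested on simulated data.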

Additional observations from a re-analysis of the deposited data

Results flagged for a closer look

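Dlk1 in control replicate 4 at day 0 (88435 normalized reads) lay apart from the other control libraries of that day (96719 to 98266), with a gap of 0.849 of the group's range on the deposited log2 scale. Of 56 groups examined this way, chance alone marks about 1 in 20.

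The knockdown effect differed between days in an F test over all 32 libraries (limma, adjusted p) for Dlk1 (3.79e-05), Igf2 (0.000396), Mest (0.0026), Ndn (0.0165) and H19 (0.0176).

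The shRNAs differed in direct tests (limma, log2 difference of shRNA 2 minus shRNA 1). At day 0 the differences were -1.16 for H19, -0.46 for Grb10, -0.19 for Dlk1, 0.18 for Peg3, 0.29 for Mest and 0.49 for Igf2. At day 3 they were 0.49 for H19, 0.55 for Mest and -0.27 for Dlk1. At day 7 they were 0.80 for H19, 0.54 for Ndn and 0.43 for Mest. At day 11 they were 0.49 for H19, 0.64 for Peg3, 0.65 for Ndn, 0.96 for Igf2 and 1.18 for Mest. Each shRNA had 2 libraries a day, and a difference between shRNAs cannot be told apart from one between the cell populations that carry them.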

How the results depend on the processing

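The number of members called at days 0, 3, 7 and 11 was 0, 3, 3 and 3 in the knockdown. In 1 fit of all 32 libraries and with the shRNAs as separate groups it was 1 at day 0 (H19), and with separate shRNAs it was 5 at day 7 (H19 and Peg3 gained) and 4 at day 11 (Ndn gained). With the replicate block it was 1 at day 3 (H19), 2 at day 7 (Dlk1 lost, -0.19, limma adjusted p = 0.155) and 0 at day 11. It ended the calls of Dlk1 and Mest at day 3 (limma, adjusted p = 0.0752 and 0.0546). At day 11 it ended those of Dlk1, Igf2 and Mest (limma, adjusted p = 0.136, 0.0846 and 0.126). Knockdown libraries carry only the numbers 1 and 2, so control replicates 3 and 4 did not enter that contrast. The numbers were not shown to pair libraries (correlations of deviations from -0.09 to 0.21), so this is no measure of a weaker effect. Leaving out libraries gave 0, 3, 3 to 4 and 2 to 4 members. In control cells 1 fit of all libraries gave 2 members in place of 5 at day 7 against day 0 and 3 in place of 5 at day 11 against day 0, and ended the calls of Ndn at day 3 against day 0 (limma, adjusted p = 0.199) and Mest at day 11 against day 7 (0.171). Left-out libraries gave 3 to 5 at day 11 against day 0, with 3 without day 0 control replicate 3 or day 11 control replicate 4. H19 at day 3 and Mest and Ndn at day 7 kept their calls in all alternatives and left-out libraries of the pooled comparison.

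For the neighbours, a pseudocount of 10 gave Dlk1 minus Meg3 of 0.36, -0.24 and -0.33 at days 3, 7 and 11 and H19 minus Igf2 of 1.3 and -0.84 at days 3 and 11 (exact permutation p adjusted over 8 tests, 0.057 to 0.114). On log2 of rebuilt normalized reads plus 1 they were 0.37, -0.85, -0.76, 0.49 and -1.74 (adjusted 0.076 to 0.571). With a library left out they were 0.30 to 0.42, -0.31 to -0.22, -0.40 to -0.25, 1.16 to 1.36 and -1.26 to -0.93, and no such test can pass (adjusted 0.091). The causes of these changes were not tested. Few reads limit Meg3, Cdkn1c, Plagl1 and Igf2.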
